A study of Mus musculus with 6 samples.

Results

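The mitochondrial ribosomal protein genes are the nuclear genes for the proteins of the ribosome inside mitochondria. They were chosen by name: every gene whose symbol is Mrpl or Mrps followed by a number and at most 1 letter, pseudogenes left out. This gave 78 of the 55471 genes counted, on 17 chromosomes. The rule reads the names alone, though it was set with earlier results of these data known. Their RNA was counted in the most rostral tissue of the telencephalic primordium, the embryonic origin of the olfactory bulb and frontal cortex, dissected from mouse embryos at E11.5. Libraries from 3 control and 3 Rx-Dicer samples were compared to ask how gene expression differed where Dicer, the RNase that cuts precursors into mature miRNAs, was lost early.

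Control embryos carried both floxed Dicer alleles without Cre (DicerF/F), although the genotype field calls them WT. Rx-Dicer embryos carried the same floxed alleles plus an Rx3-Cre transgene (RxCre-DicerF/F). The floxed allele Dicer1tm1Bdh/J was kept on C57BL/6 and Rx3-Cre on CD1, and the background of the embryos themselves is not stated. Rx drives Cre from early stages in the eye field and anterior forebrain, so Dicer is removed only in cells that have expressed Rx, and the dissected tissue also holds blood, vessels and other cells that have not. Whether 1 embryo or several went into a library is not given in the labels, so p-values measure the spread between these libraries. In such bulk tissue, fewer cells of a type and less RNA per cell cannot be told apart.

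As background, mitochondria keep a small genome of their own, and its mRNAs, which encode core subunits of the respiratory chain and ATP synthase, are translated by a dedicated ribosome. Its small particle decodes the mRNA and its large particle joins the amino acids. Both rRNAs come from mitochondrial DNA, while every protein is made in the cytosol from nuclear genes and imported. Some of these proteins descend from bacterial ribosomal proteins and others were added during the evolution of mitochondria. Inherited defects of these genes cause respiratory chain deficiency, often with disease of brain, heart or liver.

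Library totals ranged from 34471501 to 48373468 counts on genes and overlapped between genotypes. Dicer1, counted over the whole gene and not over the floxed exon alone, had 6355, 7070 and 6270 normalised counts (counts divided by each library's DESeq2 size factor) in control 1 to 3 and 4777, 7002 and 4644 in Rx-Dicer 1 to 3. Its log2 fold change was -0.26 and was not called by DESeq2. Without Rx-Dicer 2 it was -0.47 and called lower, and without Rx-Dicer 1 or 3 it was -0.18 and -0.16 and not called. Rx-Dicer 2 lay at the control level, and the whole-gene count does not check its genotype. That library also had the largest share of reads outside annotated genes, 13.2% of uniquely aligned reads against 8.15 to 10.5% in the other 5 libraries. Of the markers of the dissected tissue, the transcription factor Six3 rose (log2 fold change 1.27, DESeq2 adjusted p = 6.27e-06) and Pax6, of cortical progenitors, fell (-0.43, adjusted p = 0.013), while the other 5 tested members of that list of 8 were not called. Summed markers of hypothalamus and optic field were 410 to 615 normalised counts in control and 1466 to 2730 in Rx-Dicer libraries. In that list Vax1 and Otp rose (log2 fold change 1.08 and 3.40, adjusted p = 0.0026 and 0.00070, DESeq2). Summed markers of microglia were 755 to 948 in control libraries and 873 to 2784 in Rx-Dicer libraries, and there Csf1r and Cx3cr1 rose (0.98 and 1.18, adjusted p = 0.033 and 0.010, DESeq2). Without Rx-Dicer 1 their log2 fold changes were 0.60 and 0.78 and neither was called, and both calls were also lost without control 2, control 3 or Rx-Dicer 3, and that of Csf1r without control 1. Without Rx-Dicer 2, in contrast, 5 of the 6 microglia markers were called higher by DESeq2. Their median log2 fold change was then 1.44, against 1.03 with all libraries. The call of Pax6 was lost without control 2 and that of Vax1 without control 2 or Rx-Dicer 2. By edgeR 0 of these 6 genes were called (adjusted p = 0.133 to 0.271). With all libraries, no marker of neurons, erythroid cells, mesenchyme or endothelium was called. Without Rx-Dicer 1, and likewise without Rx-Dicer 2, 1 of 8 neuron markers was called lower by DESeq2. Without Rx-Dicer 3, 1 of 6 endothelial markers was called higher. The part of these differences in tissue makeup in the results that follow was not tested.

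A count was found for 77 of the 78 genes. Mrpl53 (ENSMUSG00000030037, GRCm38 chr6:83109040-83109939) had 0 counts in all 6 libraries. Of its 790 exon bases, 695 (88.0%) are shared with Gm42688, a gene annotated on the same strand, and the counting gave reads over 2 genes to neither. Its level is therefore not measured here. Next in shared sequence were Mrps34, with 37.0% of its exon bases shared, Mrps18c with 23.2%, Mrps6 with 19.9% and Mrps24 with 15.4%, whose counts can miss reads. Of the remaining genes, Mrpl3, Mrpl33 and Mrpl51 shared 2.15 to 3.72%, and the others shared none.

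Levels were set side by side as normalised counts per kilobase of the principal transcript. In control samples they spanned 17.3-fold, from 284 for Mrpl1 to 4909 for Mrps21, with a median of 1238 against 345 over all protein-coding genes tested. The 5 highest were Mrps21 (4909 ± 158 per kilobase, SD, n = 3), Mrpl42 (4854 ± 233), Mrpl52 (4415 ± 220), Mrpl12 (3517 ± 573) and Mrpl34 (3441 ± 27.2). Mrps21 and Mrpl42 did not differ beyond their spread, nor did Mrpl12 and Mrpl34. Mrps21 and Mrpl34 encode small proteins with bacterial counterparts, Mrpl12 forms the flexible stalk that recruits translation factors, and Mrpl42 and Mrpl52 have no bacterial counterpart. The 5 lowest were Mrpl1 (284 ± 14.7 per kilobase), a protein of the stalk beside the tRNA exit site, Mrpl48 (303 ± 23.3), Mrps25 (324 ± 0.88), Mrpl17 (329 ± 9.88) and Mrps26 (348 ± 16.2). Annotated length weighs on this order, since Mrpl17 and Mrps25 have annotated transcripts of 7300 and 6073 bp. The order therefore depends on which transcript the tissue uses, which the gene counts do not show.

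**Figure D1:**
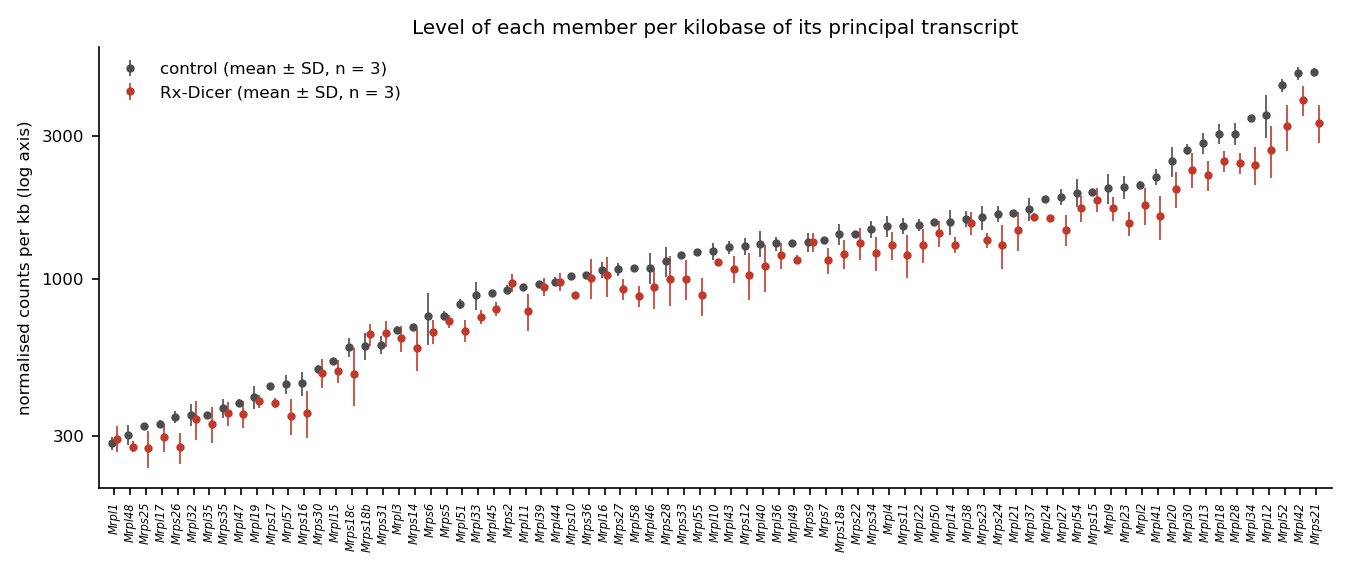
Level of each of the 77 counted genes in control (grey) and Rx-Dicer (red) samples, in normalised counts per kilobase of principal transcript on a log axis, as mean ± SD of 3 samples. Control levels run from 284 (Mrpl1) to 4909 (Mrps21), and the red means of most genes lie below the grey ones.

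Compared with control, transcripts of the mitochondrial ribosome were mostly lower in Rx-Dicer tissue, by small amounts. The median log2 fold change of the 77 genes was -0.22, against -0.0009 over the 17127 genes tested, and 72 of 77 had a value below 0, where 50.1% of all genes tested did. By the DESeq2 Wald test, with a call at an adjusted p under 0.05 over all genes and an absolute log2 fold change over 0.32, 3 genes fell and 0 rose. Over all genes tested the same rule called 1.18% lower and 1.75% higher, 2.93% in all. At an unadjusted p under 0.05, 20 of the 77 were lower (6.11% of all genes tested) and 0 were higher (6.96%). In 37 of 77 genes (48.1%) all 3 Rx-Dicer values lay below all 3 control values, which held for 10.7% of all genes tested, and in 0 did all lie above, which held for 8.55%. The edgeR quasi-likelihood test called 0 of the 77 in either direction (smallest adjusted p = 0.151). At an unadjusted p under 0.05 by edgeR, 22 were lower (5.84% of all genes tested) and 0 were higher. That test called 0% of 17954 genes lower and 0.0446% higher.

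Single libraries set part of these counts. Called genes numbered 1 without control 2, 1 without control 3 and 8 without Rx-Dicer 1, and 2 without each of the other 3 libraries. The share of all genes called lower moved too, to 0.611, 0.550 and 2.48% in the first 3 of these fits. Without Rx-Dicer 2 the median of the 77 was -0.13, with 63 genes below 0. The 20 genes at an unadjusted p under 0.05 became 12 without control 2, 13 without Rx-Dicer 2 and 32 without Rx-Dicer 1, where 4.42, 5.62 and 9.33% of all genes were lower at that p.

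The gene with the largest decrease was Mrps21 (ENSMUSG00000054312, GRCm38 chr3:95862634-95871519, minus strand), a protein of the small particle. It had 2481, 2375 and 2331 normalised counts in control 1 to 3 and 1736, 1347 and 1775 in Rx-Dicer 1 to 3. All Rx-Dicer values lay below all controls, and the lowest was that of Rx-Dicer 2. Its count fell by 32.4% (log2 fold change -0.56 ± 0.14, SE, DESeq2 adjusted p = 0.0064), and it was called in 17 of 20 alternative analyses. Among the 20, the looser adjusted p of 0.1 and the lack of a fold minimum reuse the main fit, so no call could be lost there. The call of Mrps21 was lost by edgeR, with the length and GC correction by principal transcript, and with a replicate block plus correction.

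Mrpl34 (ENSMUSG00000034880, GRCm38 chr8:71464959-71465747, plus strand), a protein of the large particle, came second. Its values were 2091, 2104 and 2071 in control samples and 1649, 1237 and 1494 in Rx-Dicer samples. The controls were close together and all Rx-Dicer values were lower. The count fell by 30.1% (log2 fold change -0.52 ± 0.14, DESeq2 adjusted p = 0.015). The call held in 13 of 20 alternatives and was lost without control 2, control 3 or Rx-Dicer 3. It was also lost by edgeR and in every fit with a correction for length and GC content. The largest adjusted p over all alternatives was 0.245 (DESeq2).

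Mrpl55 (ENSMUSG00000036860, GRCm38 chr11:59202486-59206134, plus strand), also of the large particle, had 1132, 1177 and 1152 normalised counts in control and 937, 699 and 853 in Rx-Dicer samples. The groups did not overlap, and the count fell by 28.1% (-0.48 ± 0.15 on the log2 scale, DESeq2 adjusted p = 0.049). This call was the least firm: it held in 6 of 20 alternatives and was lost when any library other than Rx-Dicer 1 was left out. The call of Mrpl55 too was lost by edgeR and in every fit with a correction for length and GC content.

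The promoters of these 3 genes, from 250 bases before to 50 after the RefSeq start on GRCm38.p6, are shown because they carry the genes called. Capitals mark matches on either strand to the words GCGCA, any base, then GCGC (bound by NRF1, a regulator of nuclear genes for mitochondria), CCGGAAG (bound by ETS factors such as GABP) and AAGATGGC (bound by YY1).

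Mrps21, chr3:95871465-95871764, minus strand: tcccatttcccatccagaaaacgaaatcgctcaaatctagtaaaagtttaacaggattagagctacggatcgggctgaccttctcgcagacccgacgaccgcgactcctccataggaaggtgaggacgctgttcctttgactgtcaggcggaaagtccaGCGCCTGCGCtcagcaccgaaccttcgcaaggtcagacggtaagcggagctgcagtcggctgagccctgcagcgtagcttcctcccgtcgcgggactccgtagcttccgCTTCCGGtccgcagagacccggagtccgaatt
Mrpl34, chr8:71464676-71464975, plus strand: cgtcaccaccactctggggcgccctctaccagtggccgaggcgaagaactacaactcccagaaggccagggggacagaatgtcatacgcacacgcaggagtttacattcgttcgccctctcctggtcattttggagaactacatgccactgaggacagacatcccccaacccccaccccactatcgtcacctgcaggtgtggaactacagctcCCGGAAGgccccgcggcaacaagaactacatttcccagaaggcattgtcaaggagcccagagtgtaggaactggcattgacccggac
Mrpl55, chr11:59202236-59202535, plus strand: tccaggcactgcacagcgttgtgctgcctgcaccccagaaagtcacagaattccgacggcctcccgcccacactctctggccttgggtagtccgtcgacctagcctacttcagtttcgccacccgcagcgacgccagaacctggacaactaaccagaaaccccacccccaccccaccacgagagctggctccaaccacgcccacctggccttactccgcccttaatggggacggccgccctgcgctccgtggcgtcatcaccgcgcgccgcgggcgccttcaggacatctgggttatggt

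The promoter of Mrps21 held an NRF1 word that begins at base -91 and an ETS word at base 19, counted from the start site, that of Mrpl34 an ETS word at -37, and that of Mrpl55 none of the 3. Of the 78 genes, 69 matched a promoter in the table, and 43 of them (62.3%) held at least 1 of the 3 words, as did 3679 of 17492 protein-coding genes. The ETS word was in 26 (37.7%, against 12.9%), the NRF1 word in 13 (18.8%, against 7.17%) and the YY1 word in 12 (17.4%, against 3.57%). The TATA word TATAAA was in 5 (7.25%, against 14.8%) and the E-box CACGTG in 5 (7.25%, against 8.91%). Median GC content of the promoters, 58.3%, was near the 57.3% of all. Median log2 fold changes were -0.26 for 25 counted genes with the ETS word and -0.19 for 43 without, and -0.22 with and without the NRF1 word. A match is a description of the letters, and no binding was measured.

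The next genes in size of change were not called. Mrpl52 had 1739, 1900 and 1898 normalised counts in control and 1582, 1110 and 1378 in Rx-Dicer samples, without overlap (log2 fold change -0.44 ± 0.15, DESeq2 adjusted p = 0.094). Mrpl41, a large-particle protein without bacterial counterpart, had 1584, 1766 and 1756 against 1427, 1024 and 1322, also without overlap (-0.44 ± 0.15, adjusted p = 0.103, DESeq2). Mrpl23, which lies at the exit of the tunnel for the growing protein, had 1352, 1540 and 1312 against 1100, 954 and 1131 (-0.40 ± 0.14, adjusted p = 0.091, DESeq2). Its groups too were apart. In all 6 of the genes described so far Rx-Dicer 2 was the lowest library.

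Genes of known special role had values below 0 with varied spread. The stalk gene Mrpl12 had 3822, 5314 and 4749 normalised counts in control and 4161, 2788 and 3687 in Rx-Dicer samples, and its groups overlapped (log2 fold change -0.38 ± 0.18, DESeq2 adjusted p = 0.287). Mrpl58, the peptidyl-tRNA hydrolase that frees stalled ribosomes and sits in the large particle, had 2861, 2846 and 2799 against 2316, 2072 and 2430. Its controls were tight and its groups apart, yet the adjusted p was 0.127 by DESeq2 (-0.32 ± 0.12). Mrps12, of the decoding centre, had 1064, 1210 and 1140 against 1058, 737 and 950, and Rx-Dicer 1 lay just below the lowest control (-0.31 ± 0.16, adjusted p = 0.393, DESeq2).

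Symbols do not always give the particle. Mrps30, named for the small particle but part of the large, had 1716, 1662 and 1615 normalised counts in control and 1594, 1449 and 1814 in Rx-Dicer samples, and the groups overlapped (log2 fold change -0.04 ± 0.13, DESeq2 adjusted p = 0.968). Mrps36, now known as a subunit of the 2-oxoglutarate dehydrogenase complex and not of the ribosome, had 712, 743 and 719 against 661, 635 and 833 (-0.03 ± 0.16, adjusted p = 0.982, DESeq2). Rx-Dicer values of Mrps36 lay on both sides of the controls.

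The Mrps18 paralogs, which occupy different places in the ribosome, differed in their values. Mrps18a, of the large particle, had 1132, 1321 and 1291 normalised counts in control and 1178, 943 and 1090 in Rx-Dicer samples (log2 fold change -0.22 ± 0.14). Mrps18b had 607, 724 and 612 against 760, 643 and 719 (0.13 ± 0.15), and Mrps18c, which has the fewest counts of the 3, had 408, 374 and 354 against 292, 250 and 381 (-0.30 ± 0.20). Both belong to the small particle. Groups overlapped in each of the 3, none was called by DESeq2 (adjusted p = 0.576, 0.856 and 0.601), and the differences between the paralogs were not tested.

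At the other end of the order, Mrps31 and Mrps2 of the small particle and Mrpl1 had log2 fold changes of 0.13 ± 0.14, 0.08 ± 0.12 and 0.05 ± 0.14 (DESeq2 adjusted p = 0.830, 0.898 and 0.960). Mrps31 had 866, 892 and 986 normalised counts in control and 1037, 890 and 1076 in Rx-Dicer samples. Mrps2, near the platform where mRNA leaves the small particle, had 1970, 1936 and 1849 against 1902, 1999 and 2178, and Mrpl1 had 989, 1069 and 971 against 1026, 953 and 1158. The groups of all 3 overlapped. Mrps9, a conserved small-particle protein, and Mrpl44, related to RNase III enzymes, had log2 fold changes of 0.00 ± 0.13 and -0.01 ± 0.12. For Mrps9 the 95% interval ran from -0.25 to 0.25, so a change of up to 0.25 either way was within the error. Under some alternatives the sign of Mrpl1, Mrps9, Mrpl44, Mrps30 and Mrps36 turned.

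**Figure D2:**
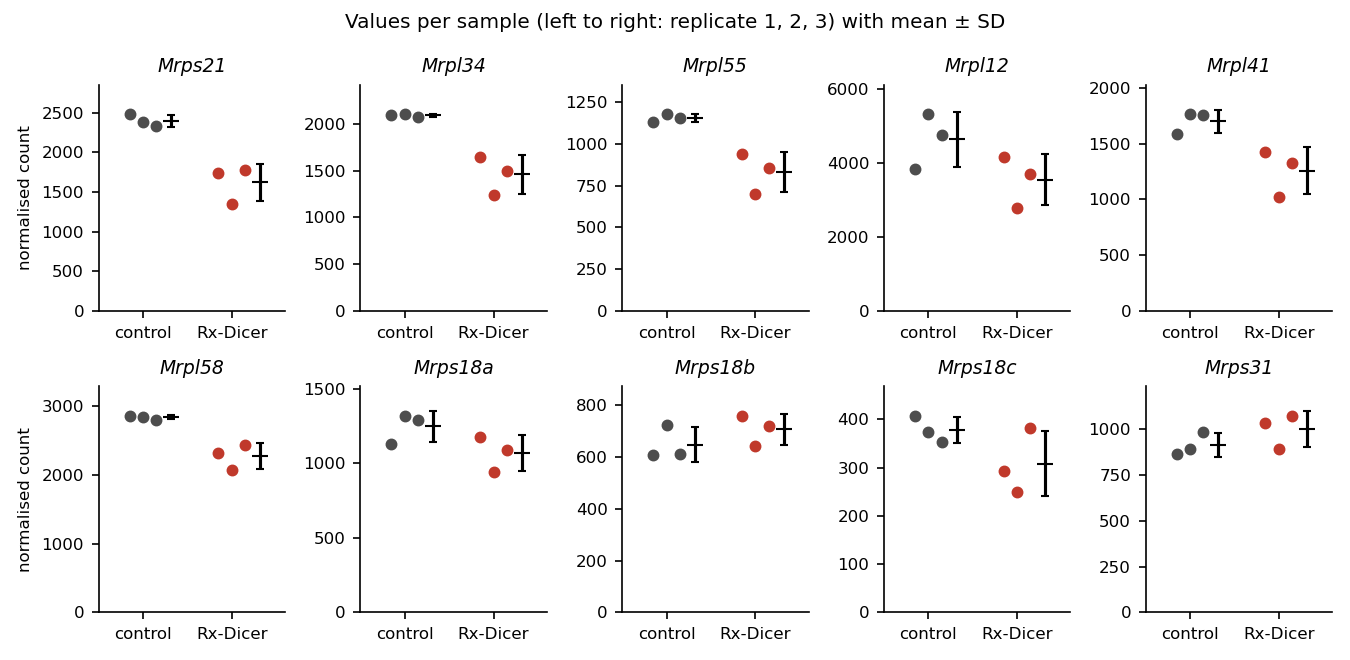
Normalised counts of 10 genes in each sample (vertical axes from 0, dots for replicates 1 to 3 from left to right, control grey, Rx-Dicer red), with mean ± SD beside them. The groups do not overlap for Mrps21, Mrpl34, Mrpl55, Mrpl41 and Mrpl58, and overlap for Mrpl12, the Mrps18 paralogs and Mrps31.

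Both particles showed like medians. Of 51 genes of the large particle, 50 had counts, with a median log2 fold change of -0.22, 49 below 0, 2 called lower and 24 without overlap. The 26 genes of the small particle had a median of -0.22, with 22 below 0, 1 called lower and 13 without overlap. Over all genes tested, 1.18% were called lower and 10.7% lay below all controls. The genes with values above 0 were Mrpl1 of the large and Mrps31, Mrps18b, Mrps2 and Mrps9 of the small particle. By origin, the 47 genes with a bacterial counterpart had a median of -0.22 with 3 called lower by DESeq2. The 29 counted genes without one had a median of -0.21 with 0 called by DESeq2. At an unadjusted p under 0.05 by DESeq2, 12 of the 47 and 8 of the 29 were lower, as were 6.11% of all genes tested. By edgeR 0 were called in any of these groups. Standard errors of single genes were 0.11 to 0.20 (median 0.14), of the order of the median change itself.

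**Figure D3:**
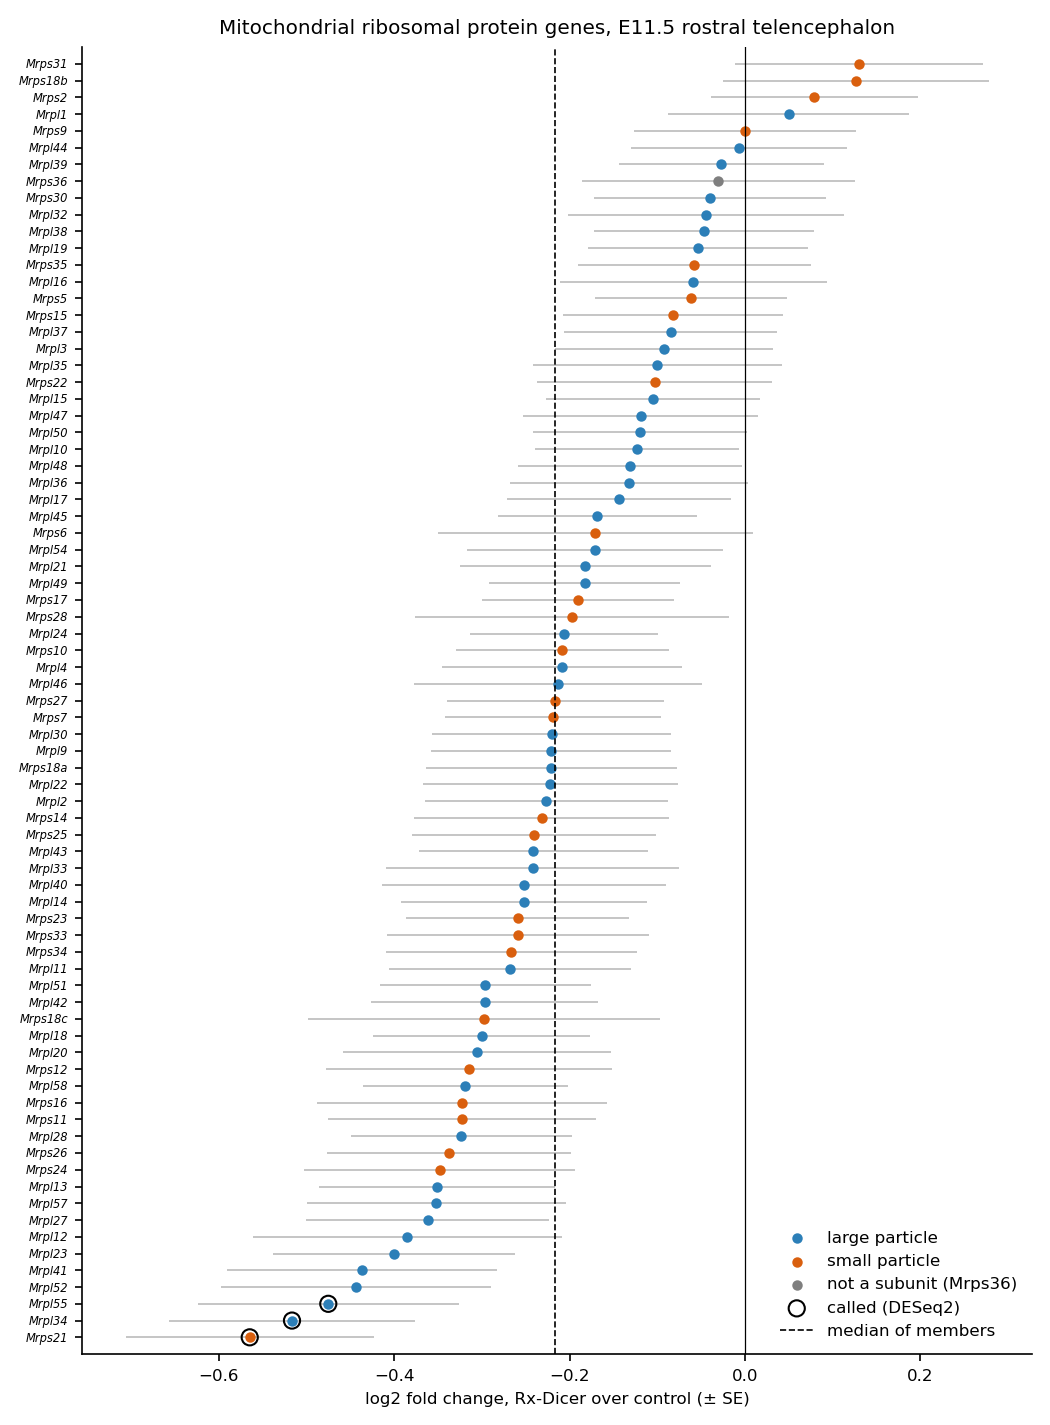
Log2 fold change of Rx-Dicer over control (horizontal axis, bars ± SE, n = 3 and 3) for the 77 counted genes in order of value, coloured by particle, with DESeq2 calls ringed. Values run from -0.56 (Mrps21) to 0.13 (Mrps31), 72 of them below 0, and the dashed median is at -0.22.

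The change was unequal among the Rx-Dicer libraries. Relative to each gene's control mean, the median of the 77 genes was -0.04, 0.03 and -0.005 (log2) in control 1 to 3 and -0.13, -0.38 and -0.13 in Rx-Dicer 1 to 3. Rx-Dicer 2 was the lowest of the 6 libraries for 70 of the 77 genes. The number of genes below all 3 controls was 51 in Rx-Dicer 1, 72 in Rx-Dicer 2 and 44 in Rx-Dicer 3, or 66.2, 93.5 and 57.1% of the 77. Over all genes tested the shares were 28.6, 31.7 and 29.6%. Summed over the 77 genes, reads made up 0.331, 0.343 and 0.343% of counts on genes in control 1 to 3, and 0.316, 0.272 and 0.302% in Rx-Dicer 1 to 3, and the groups did not overlap. Rx-Dicer 2 is also the library with Dicer1 at the control level and the most reads outside genes, and the part of either in its lower values was not tested.

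**Figure D4:**
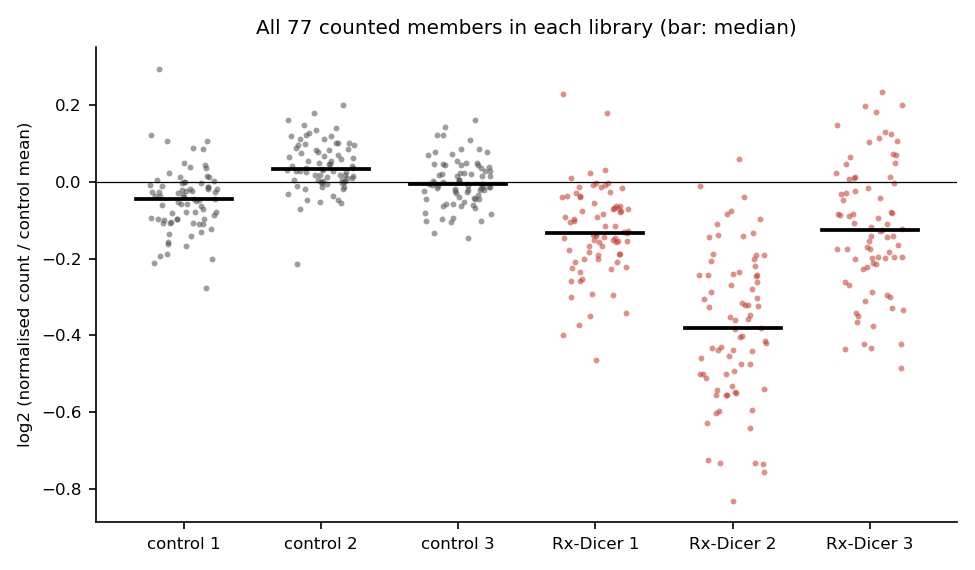
Log2 of normalised count over the gene's control mean (vertical axis) for the 77 counted genes in each library, with the median as a bar. Medians are -0.13, -0.38 and -0.13 in Rx-Dicer 1 to 3, and Rx-Dicer 2 lies lowest.

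Transcript length moved with these values. The genes are short, with principal transcripts of 418 to 7300 bp (median 1316 bp) against a median of 3069 bp for all protein-coding genes tested. Across the 77 genes the log2 fold change rose with length (Spearman's rho 0.43) and across 14130 protein-coding genes likewise (0.33), as a description over genes that share the 6 libraries. Among genes of up to 750 bp the median was -0.30 for 11 members and -0.25 for 352 coding genes, of which 38.9% lay below all controls. From over 1000 to 1500 bp it was -0.21 for 22 members and -0.13 for 1243 coding genes, and from over 2500 to 4000 bp -0.18 for 12 members and 0.01 for 4218 coding genes. In each of 6 length classes the median of the members was lower than that of all coding genes, by less in the shorter classes than in the longer ones.

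Libraries showed the same length pattern. For coding genes of 1500 bp or shorter with at least 100 control counts, 1570 in all, medians over the control mean were -0.13, -0.36 and -0.12 (log2) in Rx-Dicer 1 to 3, and for 10297 longer genes they were 0.01 in each. The 46 members of 1500 bp or shorter had medians of -0.15, -0.43 and -0.18. The 31 longer members had -0.09, -0.29 and -0.08. With a per-sample correction for GC content and the length of all exons, the median of the 77 was -0.19 against -0.05 over all genes, and 34 lay below all controls, as did 13.4% of all genes. DESeq2 then called 2 lower, Mrps21 (adjusted p = 0.044) and Mrpl13 (adjusted p = 0.012), and 0.986% of all genes. Mrpl13, a large-particle protein, is outside the rule for named genes and was chosen for this call. With the length of the principal transcript in that correction, which was chosen with the values in view, the median was -0.17 against -0.05. There 33 lay below all controls (12.5% of all genes), and 0 were called by DESeq2 (smallest adjusted p = 0.068). At an unadjusted p under 0.05, 17 were lower in that fit, as were 6.57% of all genes. What gives short transcripts lower counts in Rx-Dicer libraries was not tested.

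**Figure D5:**
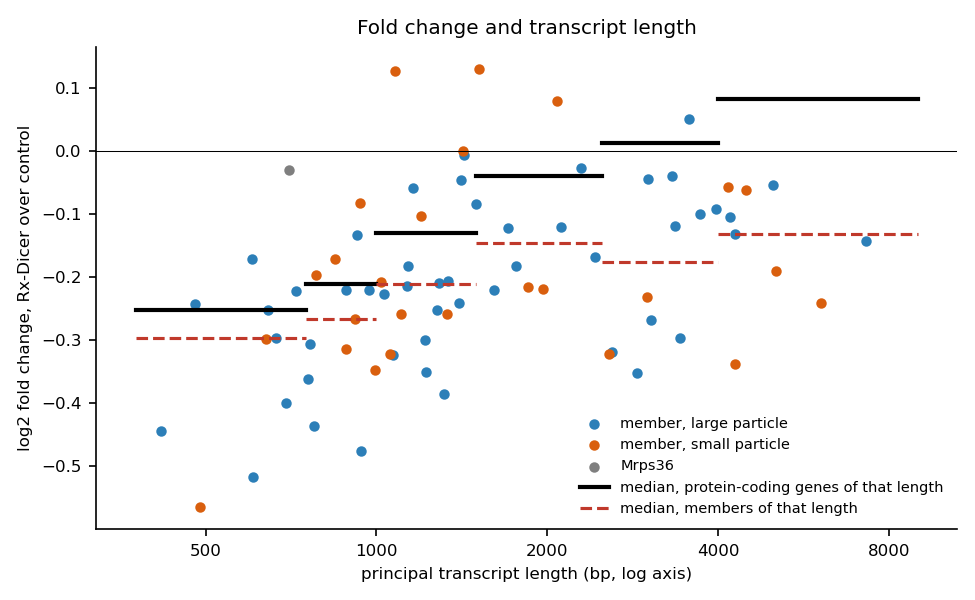
Log2 fold change (vertical axis) against principal transcript length in bp (log axis) for the 77 counted genes, with the median of all protein-coding genes (black) and of the members (red dashes) in 6 length classes. Coding medians run from -0.25 in the shortest class to 0.08 in the longest and the red medians lie below them in every class.

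Other genes of mitochondrial translation were described by list. Of 5 ribosome subunits with other names, 0 were called with all libraries. Without Rx-Dicer 1, 1 was called lower by DESeq2, as were 2.48% of all genes. With all libraries their median log2 fold change was -0.19. Chchd1 had -0.33 ± 0.13 and Aurkaip1 -0.28 ± 0.14, both small-particle proteins without overlap of the groups, while Dap3, the GTP-binding small-particle protein, had -0.09 ± 0.12 and Ptcd3 0.07 ± 0.12. The 25 assembly factors, which modify the rRNAs and dock the proteins, had a median of -0.10 with 0 called and 3 of 25 below all controls, where 10.7% of all genes tested lay. Medians were -0.08 for 15 translation factors and partners and -0.08 for 17 mitochondrial tRNA synthetases, with 0 called in each. At an unadjusted p under 0.05, 1 subunit, 1 assembly factor, 2 translation factors and 1 synthetase were lower and 1 synthetase, Lars2, was higher. Of all genes tested, 6.11% were lower and 6.96% higher at that p. By edgeR 0 genes of these lists were called. Without Rx-Dicer 2 the 4 medians were -0.06, -0.04, -0.05 and -0.03, in the same order. Their principal transcripts are longer than those of the members, with medians of 2494, 1821, 2623 and 3336 bp. With the correction by principal transcript the 4 medians were -0.18, -0.09, -0.09 and -0.12, beside -0.17 for the members, and with that by all exons -0.17, -0.10, -0.12 and -0.13, beside -0.19. The median over all genes was -0.05 in each of these corrected fits.

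RNA made in the mitochondria had median values above 0. The small rRNA mt-Rnr1 had 14754, 7290 and 8937 normalised counts in control and 8806, 14997 and 15846 in Rx-Dicer samples, with control 1 among the high ones (log2 fold change 0.36 ± 0.25, DESeq2 adjusted p = 0.630). The large rRNA mt-Rnr2 had 21667, 13602 and 16304 against 16042, 20667 and 23626 (0.23 ± 0.19, adjusted p = 0.728, DESeq2). Both overlapped between genotypes. The 13 mitochondrial mRNAs had a median of 0.15 with 0 called and 12 above 0, and the median was -0.03 over 12 tested without Rx-Dicer 3, and 0.27 with 1 called higher without Rx-Dicer 1. Of 14 regulators of mitochondrial genes, among them Nrf1, Gabpa, Yy1 and the coactivator Ppargc1a, 0 were called with all libraries. In that fit 0 had an unadjusted p under 0.05 in either direction by DESeq2, and the median was 0.05. Without Rx-Dicer 2, 1 of the 14 was called higher by DESeq2, as were 429 of 16819 genes tested. With the correction by principal transcript the median was -0.05, beside -0.05 over all genes. Nrf1, which gave its name to 1 of the promoter words, had a log2 fold change of -0.05 ± 0.11 in the main analysis.

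Beside the mitochondrial ribosome stand other sets of short genes. The 86 tested genes of the cytosolic ribosome had a median log2 fold change of -0.33, with 10 called lower and 62.8% below all controls. The 75 tested nuclear genes of the respiratory chain had -0.32, with 14 called lower and 65.3% below all controls. Over all genes tested, 1.18% were called lower and 10.7% lay below all controls. The principal transcripts of these sets are shorter still, with medians of 866 and 861 bp. The 38 tested proteasome genes, with a median of 1541 bp, had a median of -0.09 with 0 called and 21.1% below all controls. With the length and GC correction by principal transcript, medians were -0.21 for the cytosolic ribosome, -0.20 for the respiratory chain, -0.17 for the mitochondrial ribosome and -0.08 for the proteasome, and with that by all exons they were -0.29, -0.26, -0.19 and -0.13. The median over all genes was -0.05 in each of these corrected fits. Without Rx-Dicer 2 the medians of the sets, in the same order, were -0.21, -0.21, -0.13 and -0.06 with no such correction. The numbers called lower in the first and second set were then 6 and 9, where 1.22% of all genes were. In that fit 1 proteasome gene was called higher, as were 429 of 16819 genes tested. Without Rx-Dicer 1 the numbers called lower in the first and second set were 22 and 27, where 2.48% of all genes were. Differences between the sets were not tested.

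Because Dicer makes the let-7 miRNAs, the 3′ UTRs were searched for the word CTACCTCA, which pairs with their shared seed. The mature sequences of let-7 members from RefSeq, with the seed (bases 2 to 8) in capitals, show that it is common to the family.

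mmu-let-7a-5p: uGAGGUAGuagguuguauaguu
mmu-let-7c-5p: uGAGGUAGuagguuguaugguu
mmu-let-7g-5p: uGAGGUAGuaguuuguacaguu

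The word was in the annotated 3′ UTR of 2 of the 78 genes (2.56%), against 2.77% of 20803 protein-coding genes. Its first 7 bases were in 5 (6.41%, against 8.18%). The 3′ UTRs are short, with a median of 327 bases against 849. Both sites are shown with the word in capitals.

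Mrpl15, chr1:4775344-4775369, minus strand: gcagagtggCTACCTCAcatagaaga
Mrps25, chr6:92170508-92170533, minus strand: atgccatgaCTACCTCAgaacaccat

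Mrpl15 had 2216, 2263 and 2229 normalised counts in control and 2139, 1867 and 2231 in Rx-Dicer samples (log2 fold change -0.10 ± 0.12, DESeq2 adjusted p = 0.849). Mrps25 had 1963, 1961 and 1971 against 1781, 1397 and 1810, and here all Rx-Dicer values were lower (-0.24 ± 0.14, adjusted p = 0.484, DESeq2). Neither gene was called. Mrpl15 was named for its site, outside the rule for named genes.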

How the data were processed

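Tissue RNA was sequenced as directional libraries with paired reads of 100 bp from 3 control and 3 Rx-Dicer samples of E11.5 embryos. The deposited values are unnormalised read counts per gene, for which the authors, as their methods state, used Trim Galore 0.6.5 for trimming, HISAT2 for alignment to GRCm38 and HTSeq 0.12.4 for counting over Ensembl genes, in union mode on the reverse strand, so that reads over 2 genes on a strand, or aligned to several places, were given to none. Close paralogs and overlapping genes can therefore be undercounted. Strand was used, so antisense genes share no reads. Rows for reads without a gene, 24.9 to 31.0% of all tallied reads per library, stayed out of totals and tests.

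The 12 files hold 2 runs of each sample. Chi-square per degree of freedom was 1.13 to 1.52 between runs of a sample and 22.5 to 32.6 between samples, so runs were summed and n was 3 per genotype. A floor of 3 counts in a library was 0.0620 to 0.0870 CPM, which covers counting error only, since PCR copies were not marked by molecular identifiers. The genotypes were compared with the Wald test of DESeq2 1.42.0 (R 4.3.3), the tool of the study, on 30928 genes with a count. Size factors were medians of ratios, genotype was the only term, fold changes were not shrunken, and p-values were adjusted over all genes by Benjamini-Hochberg with independent filtering. Where values of 2 groups "do not overlap", all 3 lie beyond all 3. The 55471 identifiers were matched to GENCODE M21 (55230 found) for names, positions, lengths and 3′ UTRs. The principal transcript is the one with the best principal (APPRIS) mark in that annotation, with ties given to protein-coding and then to longer transcripts. Genes without such a mark were given their longest protein-coding transcript, or else their longest one.

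Alternatives were edgeR 4.0.16 (quasi-likelihood test, TMM factors, at least 10 counts in at least 3 samples), other scalings, thresholds and filters, protein-coding genes only, each run by itself, the replicate number as a block, correction for all-exon length and GC content per sample (splines with 5 degrees of freedom on log2 counts with a pseudocount of 0.5), and leaving out each sample. The tests were checked on simulated counts. The members, classes, lists and tests were chosen with earlier results of these data known. Named were called members, the 6 highest and 6 lowest by fold change with at least 100 normalised counts, the 5 highest and 5 lowest per kilobase, the Mrps18 paralogs, Mrpl12, Mrps12, Mrpl41, Mrpl58, Mrps30 and Mrps36, and called genes of the smaller lists and markers. Levels per kilobase used the principal transcript in place of all exons, because exons of rare transcripts lengthen several members many-fold. Shared replicate numbers come from the titles. Samples of different genotype are different embryos.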

Additional observations from a re-analysis of the deposited data

How the results depend on the processing

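With the replicate number as a block (a replicate block), 2 of the 77 genes were called lower with a median of -0.22, and 0.508% of all genes were called lower. Residuals of same-numbered samples correlated at 0.29, -0.01 and -0.27. Each gene was centred within its genotype, so these correlations constrain each other and cannot tell whether the numbers pair the samples. Among unlike numbers, control 2 with Rx-Dicer 3 had 0.25, control 3 with Rx-Dicer 2 had 0.31, and the rest -0.27 to 0.01. The paper describes the controls as littermates of the mutants, and a pairing under other numbers was not tested. Against 3 in the main analysis, the number called lower was 0 by edgeR, 5 at an adjusted p under 0.1, 6 among protein-coding genes alone, 1 with the replicate block and the length and GC correction, 0 with that correction by principal transcript, and 1 to 8 when a sample was left out. The number whose Rx-Dicer values all lay above the controls was 0, against 1 with the correction by principal transcript and 0 to 1 when a sample was left out. What caused these shifts was not tested. The median ranged from -0.26 to -0.13 and the number below all controls from 37 to 53 when a sample was left out, where 13.9 to 18.7% of all genes lay below all controls.

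The 24 named members gave 480 values under 20 alternatives: 419 kept direction and side of the threshold, 24 of 3 genes lost the call, 8 of 4 genes gained one, and 29 of 5 genes changed sign. Alternatives that only loosened a threshold, or turned independent filtering off, keep the main fold changes, so no sign could turn there. With a loosened threshold no call could be lost either. Mrpl44 turned to 0.0015 by edgeR, 0.0091 by total-count scaling, 0.026 with the first run alone, 0.073 with the length and GC correction, 0.072 with block and correction and 0.070 by principal transcript, and ranged from -0.065 to 0.031 with a sample left out. Mrps9 turned to -0.0071 among protein-coding genes, -0.0090 with the second run, -0.18 with the correction, -0.18 with block and correction and -0.061 by principal transcript, and ranged from -0.059 to 0.051 with a sample left out. Mrpl1 turned to -0.025 with the first run, -0.073 with the correction, -0.073 with block and correction and -0.091 by principal transcript, and ranged from -0.030 to 0.12 with a sample left out. Mrps30 turned to 0.022 with the second run and ranged from -0.13 to 0.038 with a sample left out. Mrps36 turned to 0.026 with the second run, 0.045 with the correction, 0.042 with block and correction and 0.11 by principal transcript, and ranged from -0.16 to 0.048 with a sample left out.

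A call needed an absolute log2 fold change over 0.32, so a change near the median of the members, -0.22, could not be called for a single gene whatever its error. With no fold minimum, however, DESeq2 also called 3 of the 77 lower and 1.18% of all genes. The adjusted p therefore set the number of calls. Standard errors were 0.11 to 0.20 with 3 samples a group.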
